A study of Mus musculus with 8 samples.

Results

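Histone H3 lysine 4 trimethylation (H3K4me3) was read at the genes that encode the enzymes that write and erase this mark, in lung tumor cells with and without an inducible deletion of *Gpx4*. The gene family was chosen by name: the methyltransferases *Kmt2a*, *Kmt2b*, *Kmt2c*, *Kmt2d*, *Setd1a* and *Setd1b*, the scaffold gene *Men1*, and the demethylases *Kdm5a*, *Kdm5b* and *Kdm1a*, with all peaks that the deposited table lists under these names. Of the 10 genes, 7 had a listed peak, and they held 12 of the 35486 listed peaks (7 of 20871 genes). *Kmt2b*, *Kmt2c* and *Kdm5a* had no peak under their own names.

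The libraries were 2 from KL mice (replicates 1 and 2) and 2 from KLG4m/m mice (replicates 3 and 4). KL mice carry Lkb1fl/fl, floxed copies of *Lkb1* (gene *Stk11*), and KLG4m/m mice carry Gpx4m/m as well, in which part of *Gpx4* is flanked by rox sites. In the Gpx4m/m allele the tamoxifen-dependent recombinase DreERT2 stands behind its own loxP stop cassette and a CAG promoter, so *Gpx4* can be lost after tamoxifen only in cells that Cre has reached. Both groups received intranasal Ad-Cre, an adenovirus that carries Cre, and tamoxifen, so the floxed *Lkb1* alleles are open to Cre in both, and tumor cells were taken 10 weeks after Ad-Cre. The cells were sorted as CD45-CD31-EpCAM+, and the age and sex of the mice are not in the labels. The labels give 2 libraries per group, 4 in all. The paper's figure legend for these data gives 2 mice per group, whereas the protocol text gives 3 mice in total. These statements differ, so it is not settled that each library is a separate mouse. The p-values measure the spread between these libraries, which may in part be technical.

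H3K4me3 marks the start sites of active and poised genes. MLL-family (KMT2) and SETD1 methyltransferases act in multisubunit complexes around a shared core of WDR5, RBBP5, ASH2L and DPY30: KMT2A and KMT2B with menin act at selected promoters, KMT2C and KMT2D mainly place the monomethyl mark at enhancers, and SETD1A and SETD1B account for much of the trimethyl mark at promoters. KDM5 enzymes remove trimethyl and dimethyl groups, and KDM1A (LSD1), which works with CoREST proteins and histone deacetylases, removes only dimethyl and monomethyl groups. The values here are the mark on the genes of these enzymes, not their RNA, protein or activity.

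The libraries held between 3244495 and 3463731 reads in peaks. Markers of epithelium, the sorted cell type, carried listed peaks at 10 of 11 genes (*Sftpc* had none); their summed signal was 473 to 485 CPM (the reads of a peak scaled to the total in peaks of its library) in KL and 370 to 389 in KLG4m/m, and 5 of the 10 were lower in KLG4m/m (2 by DESeq2). Leukocyte markers moved the other way, from 191 to 200 CPM in KL to 237 to 240 in KLG4m/m (3 of 7 higher, 0 by DESeq2), and so did macrophage markers, from 154 to 161 CPM to 194 to 205 (2 of 5 higher, 1 by DESeq2). Endothelial markers had 1 of 5 genes lower (137 to 163 CPM against 131 to 148) and fibroblast markers 1 of 3 higher (64.4 to 71.7 against 69.3 to 73.1), each 0 by DESeq2. The markers with no listed peak were *Cd79a*, *Marco*, *Col1a2* and *Dcn*. Unless DESeq2 is named, these calls are from edgeR on reads summed per gene, which called 9.63% of all genes lower and 5.38% higher, and the part of these cell types in the results that follow was not tested. The targeted gene carried more of the mark in KLG4m/m at its promoter, with 242 and 236 reads in KL against 304 and 301 in KLG4m/m (edgeR adjusted p = 0.0085, DESeq2 adjusted p = 0.27), but the promoter lies outside the rox-flanked exons and does not check the deletion. *Stk11* also rose in KLG4m/m (log2 fold change 0.36 over its summed peaks, called by edgeR and by DESeq2). Its peaks taken singly were at 0.19 (edgeR adjusted p = 0.20) and 0.62 (edgeR adjusted p = 0.0014, DESeq2 adjusted p = 0.054). Reads on 4 of 4 Y-linked genes were present in every library (sums of 59.3 to 69.7 CPM in KL and 53.9 to 62.2 in KLG4m/m).

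The 7 genes differed widely in the strength of their H3K4me3 peaks. Because the listed peaks are 400 bp long, apart from 1 peak of the table, their CPM values can be compared between genes. In KL the strongest peak of each gene followed the order *Kdm5b* (111.8 CPM ± 3.36), *Kmt2d* (75.0 ± 5.97), *Kmt2a* (67.4 ± 0.347), *Men1* (62.3 ± 2.70), *Setd1a* (44.0 ± 0.853), *Kdm1a* (38.4 ± 5.94) and *Setd1b* (36.3 ± 8.58; SD, n = 2 each). Among neighbours in this order, only the values of *Kdm1a* and *Setd1b* overlapped. In KLG4m/m the values of *Kmt2a* and *Men1* overlapped, as did those of *Setd1a* and *Setd1b*, and *Kdm1a* lay below all the others, at 23.5 and 21.1 CPM. Compared with the strongest peak of every gene in the table, averaged over the libraries, *Kdm5b* was above 97.4% of genes and *Kdm1a* above 50.3%. *Kmt2d* had 3 peaks, *Setd1b*, *Kdm5b* and *Kdm1a* 2 each and the rest 1, and 63.5% of all genes have 1. Summed over the peaks of a gene, the order of the KL means was *Kmt2d* (173.9 CPM), *Kdm5b* (166.4), *Kmt2a* (67.4), *Men1* (62.3), *Setd1b* (60.5), *Setd1a* (44.0) and *Kdm1a* (41.7). In these sums the KL values of *Kmt2d* and *Kdm5b* overlapped. So did those of *Setd1b* with *Kmt2a* and *Men1*, and those of *Setd1a* with *Kdm1a*.

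**Figure D1:**
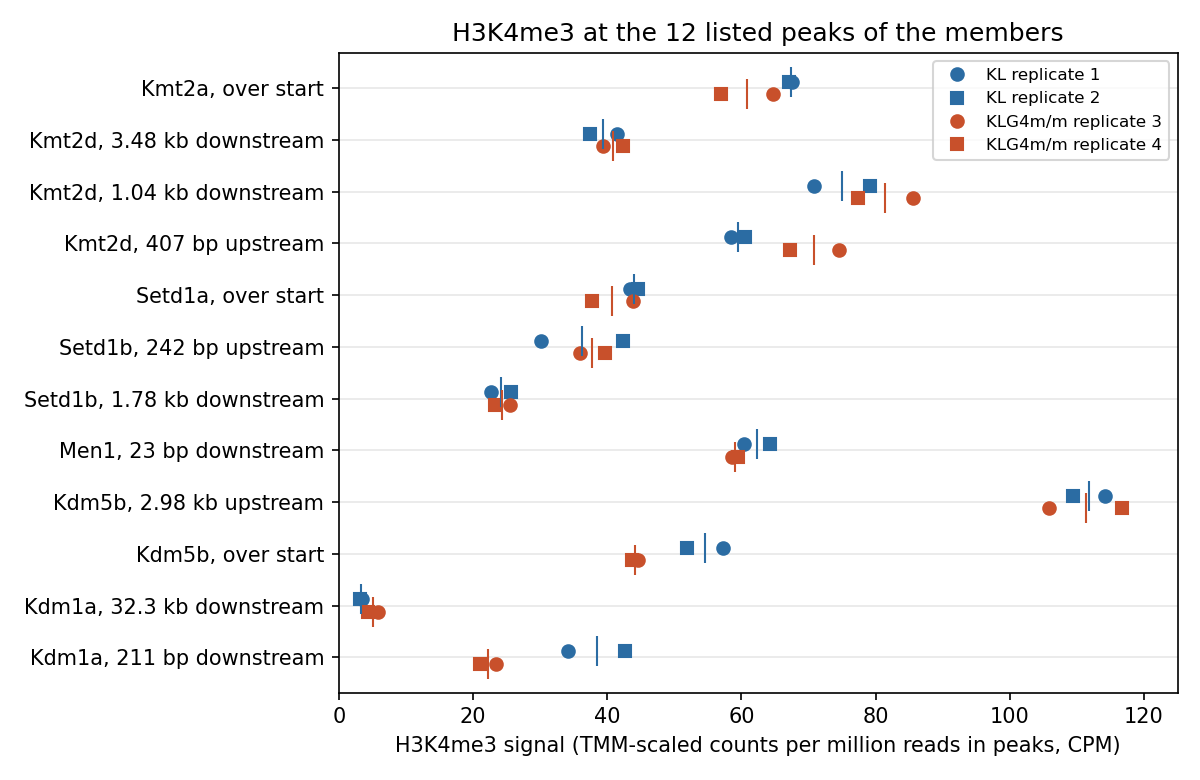
H3K4me3 signal in CPM (x axis) at each of the 12 listed peaks of the gene family (y axis, named by gene and distance from the start site). Points are single libraries, blue for KL and orange for KLG4m/m, and vertical ticks are group means (n = 2). The *Kdm1a* peak 211 bp downstream of its start site has both KLG4m/m libraries (23.5 and 21.1 CPM) well below both KL libraries (34.2 and 42.6 CPM), while at most other peaks the colours lie close together.

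Between the groups, 1 of the 12 peaks passed the test. It was the promoter peak of *Kdm1a*, which was lower in KLG4m/m, and 0 peaks of the family were higher. The test was edgeR's quasi-likelihood test, adjusted by the Benjamini-Hochberg method across the 35486 peaks, with a threshold of 0.05. Over all peaks the same rule called 5.52% lower and 3.10% higher, and over peaks within 1 kb of a start site, where 7 of the 12 family peaks lie, 8.43% lower and 2.89% higher. A single call among 12 is therefore near the background share, and it is described as a value of *Kdm1a* and not of the family. At an unadjusted p under 0.05, 3 of the 12 passed by edgeR, against 8738 of all 35486 peaks. DESeq2 called 1.16% of the peaks it tested, and 0 of the 12 passed its adjusted threshold. By its unadjusted p 1 of the 12 passed, against 2735 of all peaks. The median log2 fold change was 0.0023 over the 12 peaks and 0.0077 over all peaks, with 6 above 0 and 6 below. The groups did not overlap at 6 of the 12 peaks, against 54.2% of all listed peaks. Here and below, fold changes are KLG4m/m over KL.

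Promoter sequence was set beside these values for the genes with the largest differences, or with no peak of their own. Each line holds the 250 bases upstream of the RefSeq start site (assembly GRCm38.p6), within chr4:136602674-136602973 for *Kdm1a*, chr1:134559928-134560227 for *Kdm5b*, chr15:98871156-98871455 for *Kmt2d* and chr5:25498734-25499033 for *Kmt2c*. *Kdm5b* is on the plus strand and the others are on the minus strand. Capitals mark CCAAT (the box bound by NF-Y) and GGGCGG (the GC box bound by SP1) on either strand.
Kdm1a: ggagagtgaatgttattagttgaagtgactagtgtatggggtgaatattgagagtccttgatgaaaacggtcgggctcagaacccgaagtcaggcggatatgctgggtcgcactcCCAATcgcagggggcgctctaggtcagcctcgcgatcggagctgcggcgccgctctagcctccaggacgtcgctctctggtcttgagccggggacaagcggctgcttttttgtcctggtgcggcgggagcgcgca
Kdm5b: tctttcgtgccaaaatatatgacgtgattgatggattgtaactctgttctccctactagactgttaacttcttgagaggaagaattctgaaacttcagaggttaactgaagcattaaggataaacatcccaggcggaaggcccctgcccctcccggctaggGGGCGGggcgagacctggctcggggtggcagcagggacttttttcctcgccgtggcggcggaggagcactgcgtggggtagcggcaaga
Kmt2d: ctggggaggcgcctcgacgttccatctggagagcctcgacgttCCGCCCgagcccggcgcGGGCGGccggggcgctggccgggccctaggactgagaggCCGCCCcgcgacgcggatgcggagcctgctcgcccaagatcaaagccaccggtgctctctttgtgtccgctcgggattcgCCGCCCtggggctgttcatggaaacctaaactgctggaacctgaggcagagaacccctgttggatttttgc
Kmt2c: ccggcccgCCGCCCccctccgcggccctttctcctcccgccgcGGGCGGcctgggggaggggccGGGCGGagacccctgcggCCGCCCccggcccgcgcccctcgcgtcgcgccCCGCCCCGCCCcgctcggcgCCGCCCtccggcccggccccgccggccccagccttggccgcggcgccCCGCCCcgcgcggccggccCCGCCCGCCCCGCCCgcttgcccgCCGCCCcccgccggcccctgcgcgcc
The *Kdm1a* window held 1 CCAAT match and 0 of GGGCGG; *Kdm5b* held 1 GGGCGG match, *Kmt2d* 4 and *Kmt2c* 12, some of them overlapping. CCAAT was found in 34.46% and GGGCGG in 32.94% of the 27025 promoters. Promoter sequences were at hand for 7 of the 10 genes, not for *Kmt2b*, *Setd1b* and *Kdm5a*. CpG dinucleotides numbered 48 in *Kmt2c*, 29 in *Kmt2a*, 26 in *Kmt2d*, 25 in *Setd1a*, 21 in *Kdm1a*, 13 in *Kdm5b* and 8 in *Men1*, and each of these exceeded the median of 6 over all promoters. *Kmt2c* exceeded 99.8% of promoters and *Men1* 56.6%. AGATGGC (the core of the YY1 motif) occurred once, in *Kmt2a*, against 4.53% of promoters with a match. CCGGAAG (ETS factors; 7.05% of promoters), GCATGCG (NRF1; 3.07%) and TATAAA (the TATA box; 12.97%) had 0 matches in the 7 windows. A match is a run of letters and not a measured binding site.

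*Kdm1a*, the gene for LSD1, carried less H3K4me3 at its promoter in KLG4m/m. The peak, at chr4:136329423-136329823 in the positions of the table, held 119 and 148 reads in KL against 81 and 68 in KLG4m/m. Both KLG4m/m libraries were below both KL libraries. Scaled to depth, the level fell from 38.4 CPM ± 5.94 to 22.3 ± 1.72 (SD, n = 2 each), which is 58.1% of the KL level by the fit (log2 fold change -0.78, 95% confidence interval -1.11 to -0.46, edgeR adjusted p = 0.0023). Fewer cells that carry the mark and less of the mark per cell cannot be told apart in these bulk libraries. A second *Kdm1a* peak, in intron 8 and 32.3 kb downstream of the start site, was weak, with 12 and 11 reads in KL against 20 and 14 in KLG4m/m. There the KLG4m/m libraries were the higher ones, but the difference did not pass the test (log2 fold change 0.61, interval -0.19 to 1.43, edgeR adjusted p = 0.34). Relative to *Kdm1a* as a whole, with both peaks counted, the intronic peak differed by 1.22 on the log2 scale. This too missed the threshold (edgeR test of a peak against its whole gene, adjusted p = 0.11, 1.29% of peaks called). Of the 9 family peaks that share a gene with another peak, 0 passed that test and 1 had an unadjusted p under 0.05.

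Summed over both peaks, *Kdm1a* went from 131 and 159 reads to 101 and 82 and fell by 0.61 on the log2 scale (interval -0.90 to -0.32, edgeR adjusted p = 0.0015). It was 1 gene lower and 0 higher among the 7, where 9.63% of all genes were lower and 5.38% higher. The *Kdm1a* calls depended on the tool and on single libraries. DESeq2 gave log2 fold changes of -0.79 and -0.61 with an adjusted p of 0.10 for the promoter peak and 0.14 for the gene, at which level it called 2.52% of genes. Without KLG4m/m replicate 3 or replicate 4 the promoter fold change was -0.87 or -0.71 with edgeR adjusted p of 0.31 and 0.34, and the summed gene lost its call in those fits and without KL replicate 2 (-0.45, edgeR adjusted p = 0.12). In the fits without a KLG4m/m library edgeR called 0 of all listed peaks, with 5486 and 5178 at an unadjusted p under 0.05.

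*Kdm5b* removes the trimethyl mark itself. Its strongest peak was 2.98 kb upstream of the start site, with 397 and 380 reads in KL against 365 and 377 in KLG4m/m, and was near equal in the groups (log2 fold change -0.0087, interval -0.18 to 0.17). The one at the start had 199 and 180 reads in KL against 154 and 141 in KLG4m/m. Both KLG4m/m libraries were lower there, at 81.0% of the KL level, but the difference missed the threshold (log2 fold change -0.30, interval -0.55 to -0.062, edgeR adjusted p = 0.11). A further peak inside the gene is listed under *Mgat4e*, with 66 and 63 reads in KL against 76 and 73 in KLG4m/m (log2 fold change 0.26, edgeR adjusted p = 0.37). The 2 *Kdm5b* peaks together fell short of the threshold too (log2 fold change -0.10, edgeR adjusted p = 0.35). *Kdm5a*, its paralog, had no peak under its name. The closest gene with one is *Ccdc77*, which overlaps *Kdm5a* in the GRCm38 annotation; its 2 peaks had 173 and 184 reads in KL against 192 and 164 in KLG4m/m, and 210 and 198 against 191 and 211. The groups overlapped at both (log2 fold changes 0.053 and 0.037).

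Among the MLL-family genes, *Kmt2d* had the most listed peaks. Its peak 0.407 kb upstream held 203 and 210 reads in KL against 257 and 217 in KLG4m/m. Both KLG4m/m libraries were higher, by 0.26 on the log2 scale (interval 0.042 to 0.47), with an edgeR adjusted p of 0.13. The peak 1.04 kb downstream, with 246 and 275 reads in KL against 295 and 250 in KLG4m/m, overlapped between the groups (log2 fold change 0.12, edgeR adjusted p = 0.47). So did the one in intron 1, with 144 and 130 reads in KL against 136 and 137 in KLG4m/m (0.052, edgeR adjusted p = 0.85). Over the 3 peaks *Kmt2d* differed by 0.15 (interval 0.020 to 0.28, edgeR adjusted p = 0.11). It is the gene of an enhancer monomethylase that is often mutated in cancer.

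*Kmt2a*, the gene rearranged in MLL leukemia, had a single peak over its start site with 235 and 233 reads in KL against 223 and 184 in KLG4m/m. The KLG4m/m values were lower, but the difference was within what the test allows (log2 fold change -0.14, interval -0.36 to 0.071, edgeR adjusted p = 0.42). *Gm39326*, listed inside *Kmt2a*, held 25 and 16 reads in KL against 16 and 10 in KLG4m/m (edgeR adjusted p = 0.34). *Men1* encodes menin, the partner that KMT2A and KMT2B share. It held 210 and 223 reads in KL against 202 and 192 in KLG4m/m (log2 fold change -0.079, interval -0.30 to 0.14, edgeR adjusted p = 0.69). For *Kmt2b* the closest gene with a peak is the microRNA gene *Mir3569*, 324 bp away in the GRCm38 annotation. Its peak had 339 and 320 reads in KL against 306 and 317 in KLG4m/m (log2 fold change -0.023, edgeR adjusted p = 0.90).

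The peak beside *Kmt2c* was lower in KLG4m/m. It is listed under *4831440E17Rik*, a long noncoding RNA gene 942 bp from *Kmt2c* in the GRCm38 annotation, so which of the genes it belongs to cannot be told from the table. It held 227 and 238 reads in KL against 176 and 149 in KLG4m/m. Both KLG4m/m libraries were below both KL libraries, at 72.7% of the KL level (log2 fold change -0.46, interval -0.69 to -0.23, edgeR adjusted p = 0.0090). The neighbours of the 3 genes without a peak were looked up after the peaks of the family were known, and they enter no count of the family. By DESeq2 the adjusted p was 0.27, and by edgeR it was 0.073 without KL replicate 2 (log2 fold change -0.42), 0.31 without KLG4m/m replicate 3 (-0.54) and 0.34 without KLG4m/m replicate 4 (-0.39).

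**Figure D2:**
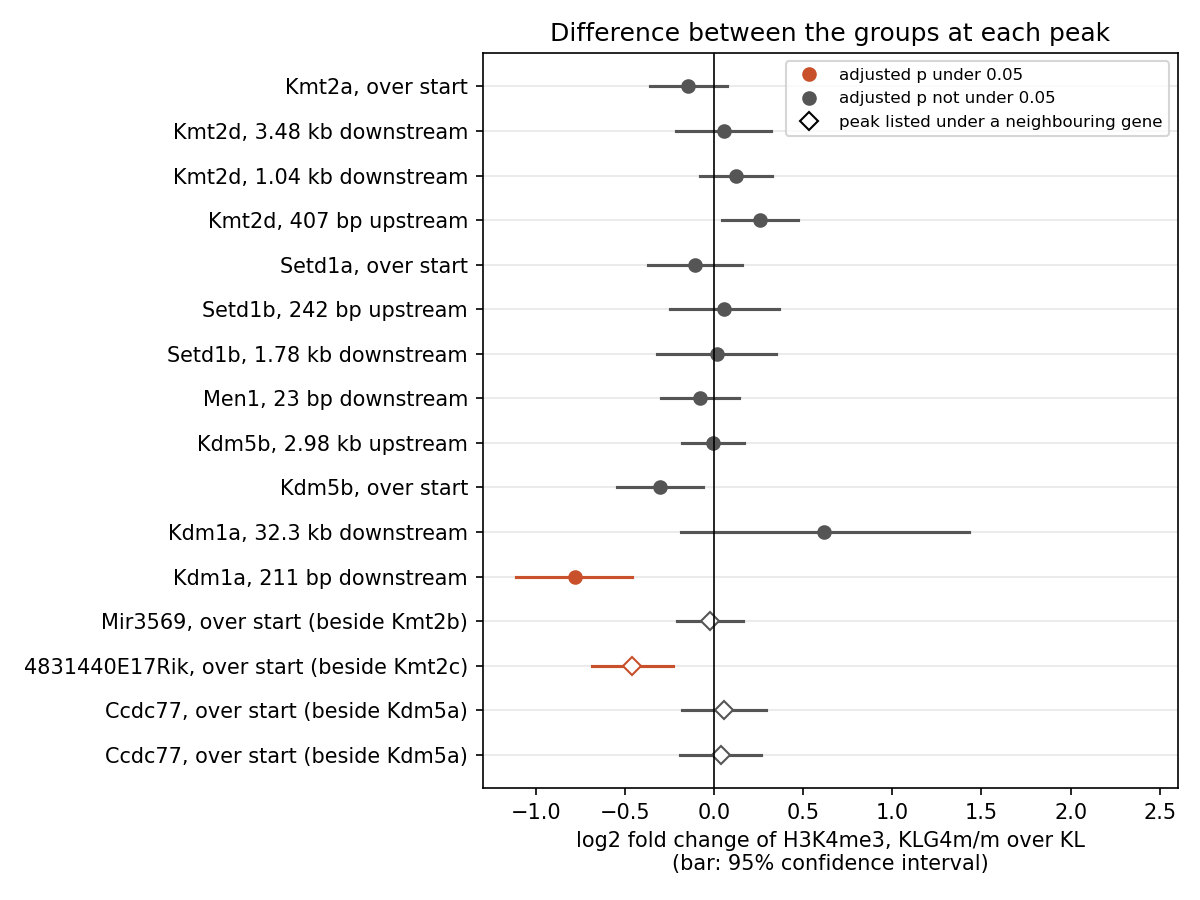
Log2 fold change of H3K4me3, KLG4m/m over KL (x axis), at each peak of the family and at the peaks of the genes closest to *Kmt2b*, *Kmt2c* and *Kdm5a* (y axis; open diamonds). Bars are 95% confidence intervals from edgeR, and orange marks an adjusted p under 0.05. The *Kdm1a* promoter (-0.78) and the peak beside *Kmt2c* (-0.46) are in orange, and the widest interval belongs to the weak intronic *Kdm1a* peak.

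The SETD1 genes showed no called difference. *Setd1a* held 151 and 155 reads in KL against 151 and 122 in KLG4m/m, so that the groups touched (log2 fold change -0.11, interval -0.37 to 0.16, edgeR adjusted p = 0.65). *Setd1b* held 105 and 147 reads in KL against 124 and 128 in KLG4m/m at the peak 0.242 kb upstream of its start site, where the KL libraries lay on either side of the KLG4m/m ones (0.058, interval -0.25 to 0.37). Its second peak, 1.78 kb downstream, held 79 and 89 reads in KL against 88 and 75 in KLG4m/m (0.013, interval -0.32 to 0.35). A peak in intron 6 of *Setd1b* that is listed under *Gm54284* held 166 and 153 reads in KL against 162 in each KLG4m/m library (0.080, edgeR adjusted p = 0.73). Each of these intervals includes 0.

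Peaks near *Kdm1a* and near *Kmt2c* were read for comparison. Within 500 kb of the *Kdm1a* promoter peak, outside *Kdm1a*, 2 of 24 listed peaks were lower and 0 higher by edgeR, against 5.52% of all peaks lower and 3.10% higher. They belong to *Luzp1*, which had 131 and 129 reads in KL against 92 and 69 in KLG4m/m (log2 fold change -0.63, edgeR adjusted p = 0.0089), and *Tcea3*. The *Tcea3* peak, 1.83 kb from the start site, had 110 and 97 reads in KL against 57 and 64 in KLG4m/m (-0.72, edgeR adjusted p = 0.0083). DESeq2 called neither of these 2 peaks (adjusted p of 0.26 for each). Another *Tcea3* peak, 21 bp from the start site, had 113 and 93 reads in KL against 107 and 93 in KLG4m/m (0.014, edgeR adjusted p = 0.97). *Luzp1* was lower at its other peaks too, without passing the test. The one 68 bp from a start site was at -0.43 (edgeR adjusted p = 0.054). The one 7.28 kb upstream was at -0.80 (edgeR adjusted p = 0.071). Close to these, the *Htr1d* peak was at -0.53 and did not pass (edgeR adjusted p = 0.11). Some uncalled peaks of the window lay above 0, up to 0.96 at *Gm52708*. The median of the 24 was -0.10. Within 500 kb of the peak beside *Kmt2c*, 1 of 11 was lower and 0 higher, at *Galnt11*, with 143 and 188 reads in KL against 93 and 85 in KLG4m/m (-0.84, edgeR adjusted p = 0.00073, DESeq2 adjusted p = 0.034). Around the other 8 genes the windows held 33 to 56 peaks, of which 0 to 5 were higher and 0 to 4 lower.

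**Figure D3:**
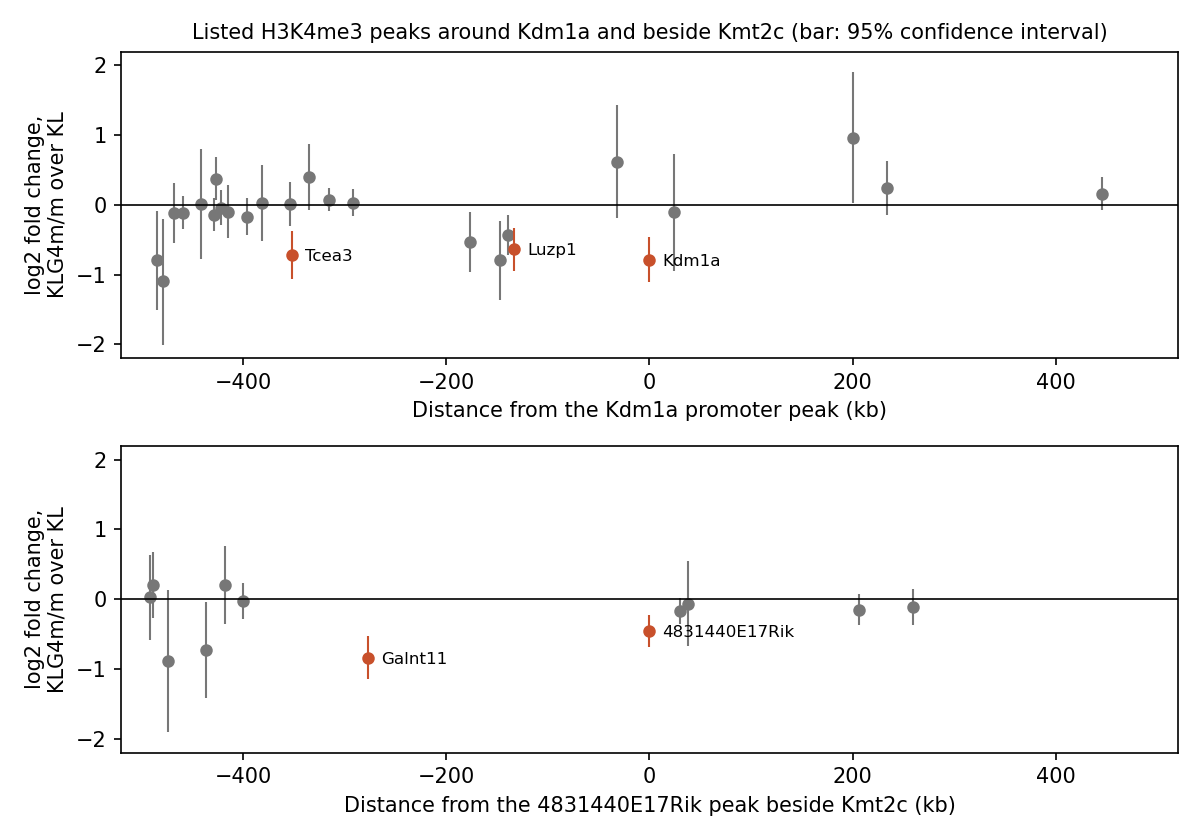
Log2 fold change, KLG4m/m over KL (y axis), of listed H3K4me3 peaks by distance in kb (x axis) from the *Kdm1a* promoter peak (top) and from the *4831440E17Rik* peak beside *Kmt2c* (bottom). Bars are 95% confidence intervals from edgeR, and orange marks an adjusted p under 0.05. Most peaks lie around 0, and the called ones (*Tcea3*, *Luzp1* and *Kdm1a* above, *Galnt11* and *4831440E17Rik* below) are all lower. Uncalled peaks in the top panel run from -1.09 to 0.96, with the other *Luzp1* peaks at -0.80 and -0.43.

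The subunits, relatives and readers that work with these enzymes were taken as a list of 38 further genes, of which 37 had a peak (*Ing2* had none). By edgeR on summed reads, 3 were lower, 2 higher and 32 did not pass, against 9.63% of all genes lower and 5.38% higher. Both counts are near these shares, so the called genes are described singly and not as a result about the list. At an unadjusted p under 0.05 edgeR had 10 of the 37, against 6014 of all 20871 genes. The median log2 fold change of the list was 0.084 and that of all genes 0.0024. Of the 4 shared core subunits, 2 were lower, and the core was not tested as a set. *Wdr5*, the subunit that binds the H3 tail and the methyltransferase, had 257 reads in each KL library and 174 and 160 in KLG4m/m, with no overlap (log2 fold change -0.57, interval -0.79 to -0.35, edgeR adjusted p = 5.1e-05). *Dpy30*, which completes the core for full activity, had 400 and 387 reads in KL against 319 and 253 in KLG4m/m (-0.41, interval -0.58 to -0.23, edgeR adjusted p = 0.00039). *Rbbp5* and *Ash2l* did not pass (-0.040 and 0.12).

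Of the 10 readers of the mark with a peak, *Ing5*, a subunit of histone acetyltransferase complexes with a PHD finger, had the largest fall of the list. It held 317 and 290 reads in KL against 178 and 148 in KLG4m/m (log2 fold change -0.84, interval -1.05 to -0.63, edgeR adjusted p = 5.4e-10). *Bptf*, the PHD-finger subunit of the NURF remodeler, rose from 214 and 232 reads to 292 and 236 over its 3 peaks (0.30, interval 0.094 to 0.50, edgeR adjusted p = 0.035). *Hcfc1*, the host cell factor found in SETD1 complexes, rose from 119 and 106 reads to 140 and 144 (0.39, interval 0.11 to 0.67, edgeR adjusted p = 0.044). By DESeq2 on reads summed per gene *Ing5* and *Wdr5* passed and the other 3 did not (adjusted p between 0.076 and 0.42). *Ing5* and *Wdr5* have 1 listed peak each. In the DESeq2 test per peak it passed for *Ing5* (adjusted p = 0.00043) but not for *Wdr5* (adjusted p = 0.075). *Hcfc1* and *Bptf* lost their calls without any 1 of the 4 libraries. *Wdr5*, *Dpy30* and *Ing5* lost theirs without either KLG4m/m library, with log2 fold changes that stayed negative. With the strongest peak of each gene alone the edgeR adjusted p was 0.62 for *Bptf*. *Hcfc1* has 1 listed peak, so its reads were the same in that fit, where its edgeR adjusted p was 0.056. The other SETD1 complex subunits lay between -0.26 (*Bod1l*) and 0.055 (*Cxxc1*), and *Psip1* (LEDGF), which tethers KMT2A complexes to chromatin, was at -0.24 (edgeR adjusted p = 0.12).

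The remaining roles held no called gene. None of the 6 partners of LSD1 passed, and their log2 fold changes ran from -0.21 (*Hdac1*) to 0.20 (*Phf21a*). The 4 subunits of the KMT2C and KMT2D complexes, among them the H3K27 demethylase gene *Kdm6a*, lay between -0.065 and 0.18. The 4 other demethylase genes lay between -0.26 (*Kdm5d*) and 0.16 (*Kdm1b*), and the 4 other methyltransferases and relatives between -0.031 and 0.13. Within this last group, *Smyd3* carried a weak peak in intron 9 with 39 reads in each KL library and 59 and 70 in KLG4m/m. The list holds 59 peaks, and over all listed peaks edgeR called 3.10% higher. The intron 9 peak, 131 kb from the start site, rose (log2 fold change 0.78, edgeR adjusted p = 0.018, DESeq2 adjusted p = 0.39), and the sum over the gene did not pass. Relative to *Smyd3* as a whole, this peak included, its difference was 0.65 on the log2 scale and missed the threshold (edgeR adjusted p = 0.12).

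**Figure D4:**
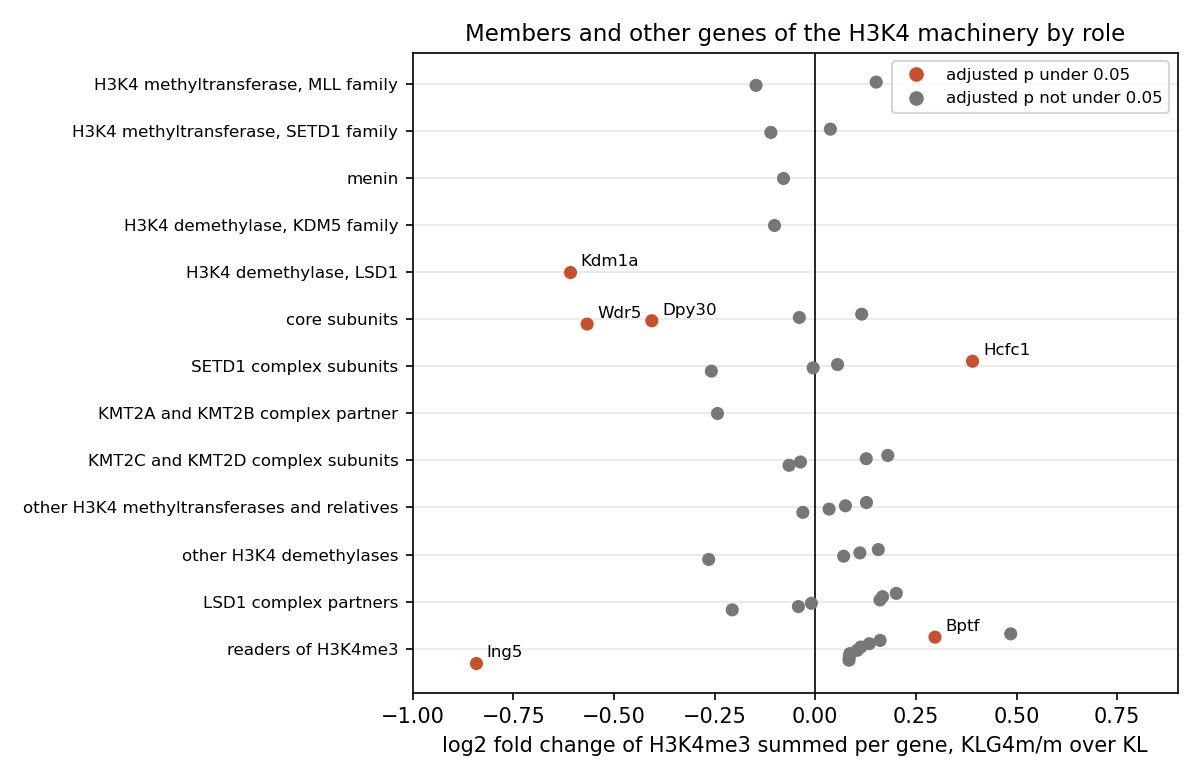
Log2 fold change of H3K4me3 summed per gene, KLG4m/m over KL (x axis), for the 7 family genes with a peak and 37 further genes of the H3K4 machinery, by role (y axis). Each point is a gene, and orange with a name marks an edgeR adjusted p under 0.05. *Kdm1a*, *Wdr5*, *Dpy30* and *Ing5* lie to the left, *Hcfc1* and *Bptf* to the right, and the other points lie between -0.26 and 0.49.

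For comparison, 26 genes for enzymes of other histone lysine methylation marks were read in the same way, and 22 had a peak (*Ash1l*, *Setdb1*, *Setdb2* and *Kmt5c* had none). Of these 3 were lower, 0 higher and 19 did not pass by edgeR, against 9.63% of all genes lower and 5.38% higher. At an unadjusted p under 0.05 edgeR had 6 of the 22, against 6014 of all 20871 genes. By DESeq2 1 was lower and 0 higher. The median was -0.017. *Ehmt1*, an H3K9 methyltransferase gene, went from 183 and 273 reads to 107 and 103 (log2 fold change -1.06, edgeR adjusted p = 4.1e-10), *Ezh1* of the H3K27 writers from 252 and 222 to 183 and 141 (-0.49, edgeR adjusted p = 0.00090), and the H3K36 demethylase gene *Kdm2b* from 472 and 560 to 434 and 383 (-0.28, edgeR adjusted p = 0.0060). *Kdm2b* was at 0.051 with its strongest peak alone. With the peak nearest its start site it was at -0.69 and kept its call (edgeR adjusted p = 0.0023). *Kdm2b* lost its call without KL replicate 2 (-0.15), and *Ezh1* without KL replicate 1 (-0.40). Without either KLG4m/m library these 3 genes lost their calls, with log2 fold changes that stayed negative. The 1 lower gene of 7 in the H3K4 family and the 3 of 22 here were not tested against each other.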

How the data were processed

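H3K4me3 was profiled with a CUT&Tag kit whose tethered enzyme is a micrococcal nuclease; the protocol text spells the antibody target H4K4me3. Per the submitters' processing notes the authors used Trim Galore 0.6.10, BWA 0.7.15, Picard 2.17.3, MACS2 2.2.7.1 and HOMER 4.11.1. The authors deposited 1 table with whole read counts per peak and library, CPM scaled to reads in peaks, the distance to the start site, and their own comparison (a log2 fold change, a mean log2 CPM, a score that is an F statistic, a p-value and its adjusted value), which was not used. A uniform gain or loss of the mark would not show in such values. The methods name an Ensembl release that is built on GRCm38, but the table's positions are not those of GRCm38. H3K27ac was not analysed here, and part of the genotype that both groups share is not reported here.

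Counts were scaled by TMM (factors 0.995 to 1.004) and tested with edgeR 4.0.16 in R 4.3.3 (glmQLFTest, two-sided, no covariate, no filter, Benjamini-Hochberg), per peak and summed per gene. The change of a peak was set against that of its whole gene by diffSpliceDGE. The common dispersion was 0.00133. CPM values are TMM-scaled means ± SD. Replicates differed slightly more than counting noise (chi-square per degree of freedom 1.13 and 1.23), which does not show that they come from separate mice; each was counted as a sample, as labelled. A peak with 11 reads carries a much larger counting error than one with 397. DESeq2 1.42.0, limma 3.58.1 on log2(CPM + 1) and other scalings, filters and peak choices were alternatives. Named are all family peaks and, from each list, genes past the threshold. Some list genes that did not pass are also named, among them *Smyd3* for a single peak. The members and lists were chosen with earlier results of these data known.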

Additional observations from a re-analysis of the deposited data

How the results depend on the processing

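With 2 libraries per group, 3244495 to 3463731 reads each, weak peaks such as the intronic *Kdm1a* peak (11 to 20 reads) can show only large changes. No paired analysis was possible because the KL and KLG4m/m libraries share no replicate number. The counts of lower family peaks and of lower family genes, 1 each, both became 0 by DESeq2 and ranged from 0 to 1 when single libraries were left out. Lower machinery genes ranged from 0 to 3 and higher ones were 0 in each of the 4 fits without a library. Higher machinery genes numbered 0 by DESeq2, 1 with total reads in place of TMM, 0 with the peak nearest the start site and 0 with the strongest peak. Lower genes for enzymes of other marks numbered 1 by DESeq2 and ranged from 0 to 2 without a library. Over all listed peaks DESeq2 called 244 lower and 33 higher, against 1960 and 1099 by edgeR, and over all genes 336 and 119, against 2010 and 1122. The cause of these differences was not tested. Fewer samples enter when a library of either group is left out, and of those fits edgeR called peaks only in the ones without a KL library.

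Under total reads, median centring, promoter-based TMM, limma and the filter at 10 CPM the *Kdm1a* promoter kept its call, with log2 fold changes from -0.79 to -0.75, and without a KL library it was -0.93 and -0.62 with edgeR adjusted p of 9.9e-05 and 0.049. These scalings moved the median of all peaks by under 0.1. The only change of direction under another setting than leaving out a library was *Kdm2b*, at 0.051 with its strongest peak alone. With the peak nearest its start site *Kdm2b* was at -0.69. Leaving out single libraries turned the sign of values that had not passed. These were the intronic *Kmt2d* peak (-0.019 to 0.13), the *Setd1b* peaks (-0.17 to 0.32 upstream, -0.071 to 0.10 downstream) and their sum (-0.13 to 0.24), the upstream *Kdm5b* peak (-0.077 to 0.058), *Mir3569* (-0.094 to 0.046) and *Ccdc77* (-0.082 to 0.15 over both peaks). Relative to the whole gene they were the *Kmt2d* peaks in intron 1 (-0.20 to 0.0012) and 1.04 kb downstream (-0.083 to 0.025). The *Setd1b* peaks also turned sign relative to the whole gene (-0.037 to 0.089 upstream, -0.13 to 0.058 downstream).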
